A study of Homo sapiens with 4 samples.

Results

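The mitochondrial chromosome of human cells carries 37 genes: 13 mRNAs for respiratory chain subunits, 22 tRNAs and 2 rRNAs. They were taken here as every gene whose name begins with MT-, which gave 37 of the 58735 genes in the deposited tables. That rule uses names and no measured value, though it was chosen with earlier results of these data known. RNA of the 37 genes was measured by sequencing in OMM2.3, an established uveal melanoma line, in 4 libraries with 1 library per group. The groups were cells given CCCP, cells given DHA, cells given CCCP and DHA together, and control cells. CCCP is carbonyl cyanide m-chlorophenyl hydrazone, a protonophore that collapses the proton gradient across the inner mitochondrial membrane. DHA is named in the labels by these letters alone, and no dose, time or vehicle is given there. All 4 cultures shared a medium with 10% fetal bovine serum, penicillin and streptomycin, and all RNA was Trizol-extracted and made into libraries with a TruSeq RNA kit.

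Both strands of the mitochondrial genome are copied by a dedicated polymerase into long transcripts that cover many genes. Enzymes then cut these at the tRNAs, which lie between most of the mRNAs and rRNAs like punctuation, and the released RNAs are matured and degraded one by one. The heavy-strand unit holds both rRNAs, most tRNAs and all mRNAs except MT-ND6, and the light-strand unit holds MT-ND6 and the remaining tRNAs. Respiring cells need these products beside nuclear-encoded subunits of complexes I, III, IV and V.

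Levels are given as FPKM (read fragments divided by exon length in kilobases and by a library size), as the authors deposited them. The library size behind the values carries a scaling between libraries that the labels do not describe: it differs from the read totals by -1.39% with CCCP, -0.673% with DHA, 2.12% with both compounds and 2.78% in control. Whole reads, given back by the deposited values, numbered 16942245 with CCCP, 17347602 with DHA, 16900411 with both compounds and 18937286 in control. Folds compare FPKM between 2 libraries and carry exact 95% intervals (Clopper-Pearson, conditional binomial). These cover counting error only, since a group of 1 library has no spread between replicates, and reads without molecular identifiers are not independent molecules. Log2 ratios were taken on FPKM + 0.5, and counts of higher or lower genes use 1.5-fold on that scale. Of 13 melanocyte lineage markers 6 reached 1 FPKM in some library, led by GPNMB at 34.9 FPKM, and 2 had 0 reads throughout. All 6 leukocyte and all 5 endothelial markers stayed under 1 FPKM. Of 7 epithelial markers 2 reached it, KRT8 being the highest at 195 FPKM. Of 8 fibroblast markers 3 reached it (COL1A1, PDGFRB and FAP), and the list summed to 20.3 FPKM with CCCP, 18.6 FPKM with DHA, 8.99 FPKM with both and 32.6 FPKM in control.

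The 3 RNA classes behaved differently. Mitochondrial mRNA took 4.41% (95% exact binomial interval 4.40 to 4.42) of all reads with CCCP, 4.66% (4.65 to 4.67) with DHA, 3.07% (3.06 to 3.08) with both compounds and 4.42% (4.41 to 4.43) in control. Only the library with both compounds was low, and its summed mRNA was 1.43-fold (1.43 to 1.44) lower than control, 1.49-fold (1.48 to 1.49) lower than with CCCP and 1.56-fold (1.56 to 1.57) lower than with DHA. Mitochondrial rRNA took 0.659% (0.655 to 0.663) of reads with CCCP, 0.501% (0.498 to 0.504) with DHA, 0.763% (0.759 to 0.767) with both and 0.363% (0.360 to 0.366) in control. All 3 treated libraries were above control, by 1.89-fold (1.87 to 1.91) with CCCP, 1.43-fold (1.41 to 1.44) with DHA and 2.12-fold (2.10 to 2.14) with both. Mitochondrial tRNA took 0.0240% (0.0233 to 0.0247) with CCCP, 0.0190% (0.0184 to 0.0197) with DHA, 0.0173% (0.0167 to 0.0179) with both and 0.0214% (0.0208 to 0.0221) in control, so only CCCP lay above control. In RNA from whole cultures, fewer mitochondrial genomes per cell and less RNA per genome cannot be told apart.

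**Figure D1:**
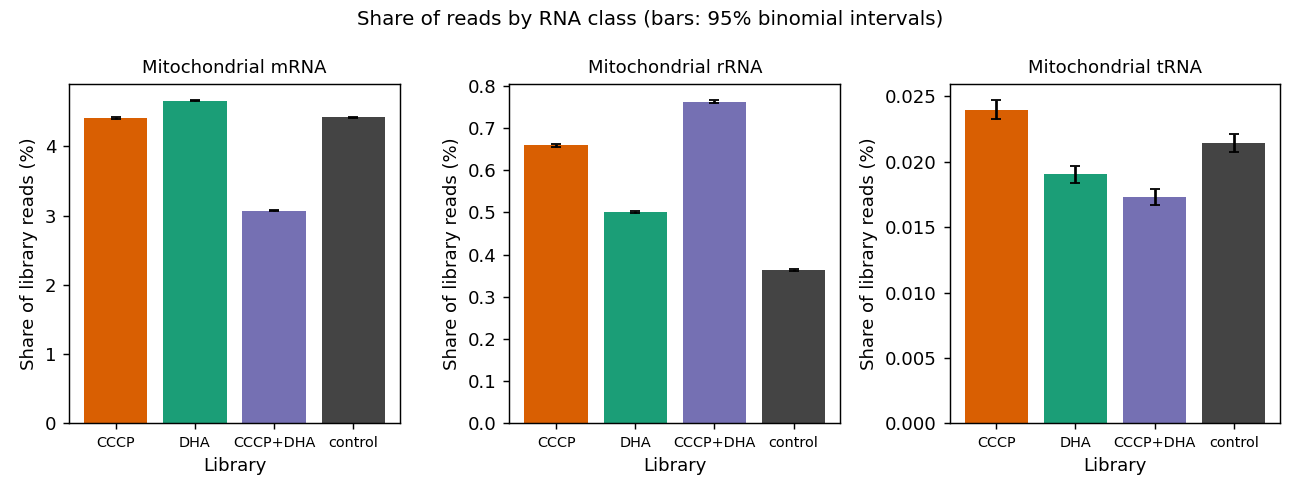
Share of all reads in each library (%, y axis from 0) taken by mitochondrial mRNA, rRNA and tRNA, with 95% binomial intervals for counting error; each panel has its own scale. The mRNA share is lowest with both compounds (3.07%), while the rRNA share is highest there (0.763%) and lowest in control (0.363%).

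Since the classes went in opposite directions with both compounds, the ratio between them differed more than either. There were 0.149 rRNA reads per mRNA read with CCCP, 0.107 with DHA, 0.249 with both and 0.0821 in control. The ratio thus stood in the order control, DHA, CCCP, both, and a ratio within a library does not depend on the scaling between libraries.

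MT-RNR1 (chrM:648-1601, plus strand) encodes the RNA of the small subunit of the mitochondrial ribosome. Its level was 874 FPKM with CCCP, 773 FPKM with DHA, 1207 FPKM with both and 519 FPKM in control. Against control it was 1.68-fold (1.64 to 1.73) higher with CCCP, 1.49-fold (1.45 to 1.53) higher with DHA and 2.32-fold (2.27 to 2.38) higher with both. With both compounds it was also 1.38-fold (1.35 to 1.41) above CCCP alone and 1.56-fold (1.53 to 1.60) above DHA alone.

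MT-RNR2 (chrM:1671-3229, plus strand) encodes the RNA of the large subunit. Its level was 3751 FPKM with CCCP, 2763 FPKM with DHA, 4052 FPKM with both and 1947 FPKM in control. That made it 1.93-fold (1.91 to 1.95) higher than control with CCCP, 1.42-fold (1.40 to 1.43) higher with DHA and 2.08-fold (2.06 to 2.10) higher with both. Adding DHA to CCCP went with a small difference, 1.08-fold (1.07 to 1.09) higher with both than with CCCP alone. Per length, MT-RNR2 ranked 6 among the 15 mRNAs and rRNAs with CCCP, 7 with DHA, 2 with both and 9 in control. The 2 rRNAs did not keep a fixed ratio: there were 7.02 MT-RNR2 reads per MT-RNR1 read with CCCP, 5.84 with DHA, 5.49 with both and 6.12 in control.

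Both rRNAs passed the 1.5-fold rule with CCCP, where 7.84% of the 13678 genes tested were that much higher than control. Neither passed it with DHA, where 4.43% of genes tested did, though MT-RNR1 came close to the threshold. Both passed it again with both compounds, where 11.1% of genes tested did. The labels do not describe how rRNA was kept out of the libraries, and the nuclear-retained noncoding RNA MALAT1 also stood above control: 80.4 FPKM with CCCP, 49.6 FPKM with DHA, 111 FPKM with both and 39.8 FPKM in control. NEAT1, another nuclear-retained RNA, was at 55.2 FPKM with CCCP, 40.7 FPKM with DHA, 47.3 FPKM with both and 47.6 FPKM in control. Whether a difference in RNA selection bears on the rRNAs was not tested.

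The mRNAs are shown first by their ends, since their borders touch those of tRNAs or of each other. The first 30 bases of 4 mRNAs on GRCh38 (transcripts of GENCODE 29, plus strand), with the first codon in capitals, show a pair that begins with codons other than ATG and a pair that begins with ATG:
MT-ND1, chrM:3307-3336: ATAcccatggccaacctcctactcctcatt
MT-ND2, chrM:4470-4499: ATTaatcccctggcccaacccgtcatctac
MT-CO1, chrM:5904-5933: ATGttcgccgaccgttgactattctctaca
MT-CO2, chrM:7586-7615: ATGgcacatgcagcgcaagtaggtctacaa
The last 30 bases of 4 mRNAs, with the stop codon or the part of one in capitals, show that some reading frames stop short of a full stop codon, which polyadenylation then completes:
MT-ND1, chrM:4233-4262: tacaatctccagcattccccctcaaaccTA
MT-ND2, chrM:5482-5511: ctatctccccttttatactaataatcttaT
MT-CO2, chrM:8240-8269: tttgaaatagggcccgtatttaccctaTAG
MT-CO3, chrM:9961-9990: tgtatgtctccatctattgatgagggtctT
Of the 13 mRNAs, 9 begin with ATG and 6 have a length that is no multiple of 3. MT-ATP8 and MT-ATP6 share 46 bases on 1 transcript (chrM:8527-8572, plus strand), printed with the first codon of MT-ATP6 and the stop of MT-ATP8 in capitals because reads there cannot be assigned to either gene:
MT-ATP8/MT-ATP6: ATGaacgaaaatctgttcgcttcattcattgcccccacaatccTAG
The shared stretch is 22.2% of MT-ATP8 and 6.75% of MT-ATP6, and MT-ND4L and MT-ND4 share 7 bases.

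**Figure D2:**
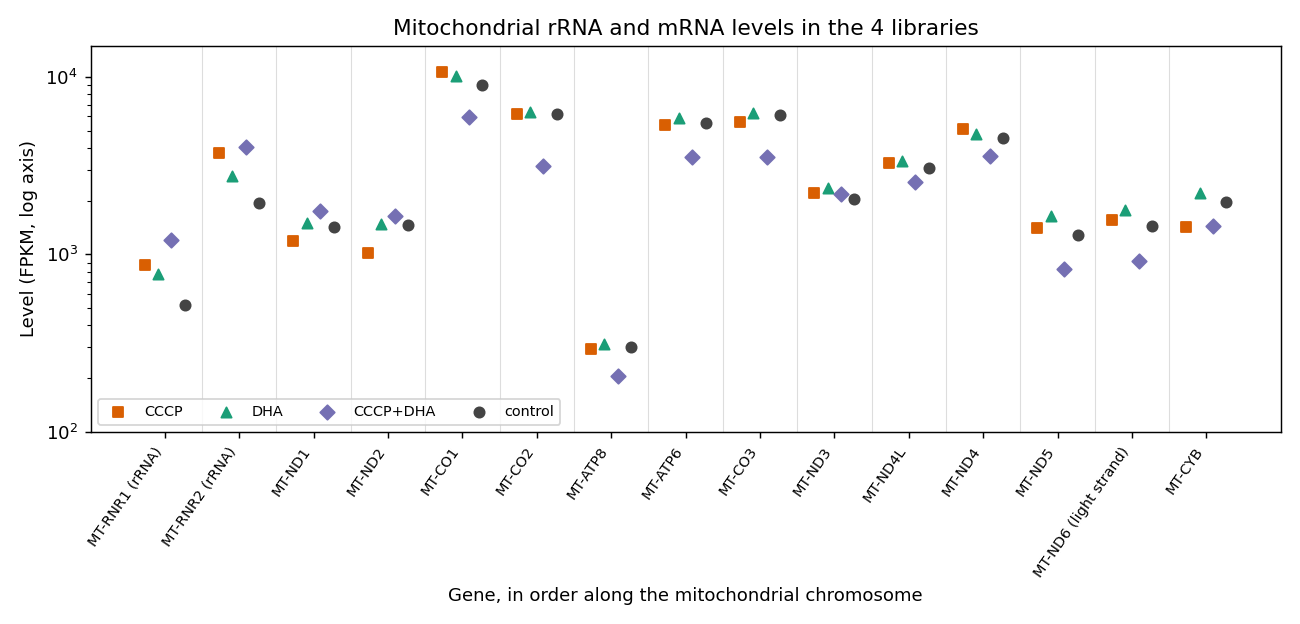
FPKM (log axis) of the 2 rRNAs and 13 mRNAs in the 4 libraries, in order along the mitochondrial chromosome, 1 symbol per library. Diamonds (both compounds) lie highest for the rRNAs, MT-ND1 and MT-ND2 and lowest for most of the other mRNAs; MT-CO1 leads in every library.

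Complex IV (cytochrome c oxidase) takes its catalytic core from 3 mitochondrial genes, and all of them were lower with both compounds. MT-CO1, the subunit that holds the oxygen-reducing centre, was at 10674 FPKM with CCCP, 10199 FPKM with DHA, 5938 FPKM with both and 9076 FPKM in control. It was the highest of the 15 mRNAs and rRNAs in every library, and only the library with both compounds was below control, by 1.53-fold (1.52 to 1.54). MT-CO2, which takes electrons from cytochrome c, was at 6157 FPKM with CCCP, 6372 FPKM with DHA, 3164 FPKM with both and 6187 FPKM in control. The 3 libraries other than both compounds lay close together, and the library with both was 1.96-fold (1.93 to 1.98) below control, the largest difference of any mitochondrial mRNA against control. MT-CO3, the third core subunit, was at 5552 FPKM with CCCP, 6300 FPKM with DHA, 3537 FPKM with both and 6116 FPKM in control. It was 1.73-fold (1.71 to 1.75) lower with both than in control and 1.10-fold (1.09 to 1.11) lower with CCCP than in control. Summed, the 3 were 1.63-fold (1.63 to 1.64) lower with both than in control.

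Complex V (ATP synthase) takes 2 subunits of its membrane part from the shared MT-ATP8 and MT-ATP6 transcript. MT-ATP6, part of the proton channel, was at 5377 FPKM with CCCP, 5914 FPKM with DHA, 3536 FPKM with both and 5524 FPKM in control. It was 1.56-fold (1.54 to 1.58) lower with both than in control, and the single compounds stayed near control. MT-ATP8 had the lowest level of the 15 in every library, at 291 FPKM with CCCP, 313 FPKM with DHA, 207 FPKM with both and 300.1 FPKM in control. It went the same way, 1.45-fold (1.32 to 1.59) lower with both than in control, and its intervals include no difference for each compound alone.

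Complex III has 1 mitochondrially encoded subunit, MT-CYB, the cytochrome b that passes electrons across the membrane. Its level was 1425 FPKM with CCCP, 2234 FPKM with DHA, 1440 FPKM with both and 1982 FPKM in control. Here the 2 libraries with CCCP were low and nearly equal, and the library with DHA alone was the highest. MT-CYB was 1.39-fold (1.37 to 1.41) lower with CCCP than in control and 1.38-fold (1.36 to 1.40) lower with both than in control. The interval of both compounds against CCCP alone included no difference, at 1.01-fold (0.994 to 1.03).

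Complex I (NADH dehydrogenase) takes 7 membrane subunits from the mitochondrial genome, and these did not go together. MT-ND1 was at 1189 FPKM with CCCP, 1499 FPKM with DHA, 1750 FPKM with both and 1423 FPKM in control. MT-ND2 was at 1024 FPKM with CCCP, 1492 FPKM with DHA, 1651 FPKM with both and 1467 FPKM in control. For both genes the CCCP library was the lowest and the library with both compounds the highest, unlike any other mRNA. MT-ND1 was 1.20-fold (1.18 to 1.22) lower than control with CCCP and 1.23-fold (1.21 to 1.25) higher with both. MT-ND2 was 1.43-fold (1.41 to 1.46) lower than control with CCCP and 1.13-fold (1.11 to 1.14) higher with both. With both compounds MT-ND2 was 1.61-fold (1.58 to 1.64) above CCCP alone, and MT-ND1 had a log2 ratio of 0.56 to CCCP alone.

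MT-ND3 varied the least among the mRNAs, with 2218 FPKM with CCCP, 2355 FPKM with DHA, 2181 FPKM with both and 2058 FPKM in control. Its highest library was 1.14 times its lowest, and it was one of 3 mRNAs above control with both compounds, beside MT-ND1 and MT-ND2; 50.7% of genes tested were above control there. MT-ND4L was at 3286 FPKM with CCCP, 3349 FPKM with DHA, 2571 FPKM with both and 3084 FPKM in control. MT-ND4, its partner on the same transcript, was at 5117 FPKM with CCCP, 4759 FPKM with DHA, 3600 FPKM with both and 4554 FPKM in control. Both were lowest with both compounds, 1.20-fold (1.17 to 1.23) below control for MT-ND4L and 1.26-fold (1.25 to 1.28) below control for MT-ND4.

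MT-ND5 was at 1403 FPKM with CCCP, 1651 FPKM with DHA, 832 FPKM with both and 1292 FPKM in control. MT-ND6, the only mRNA of the light strand, was at 1572 FPKM with CCCP, 1790 FPKM with DHA, 919 FPKM with both and 1439 FPKM in control. DHA alone was the highest library and both compounds the lowest for each of them. Against control MT-ND5 was 1.28-fold (1.26 to 1.29) higher with DHA and 1.55-fold (1.53 to 1.58) lower with both, and MT-ND6 was 1.24-fold (1.22 to 1.27) higher with DHA and 1.57-fold (1.52 to 1.61) lower with both. With both compounds MT-ND5 was 1.98-fold (1.95 to 2.01) below DHA alone. The labels do not say that reads keep their strand, so MT-ND6 reads and reads of RNA copied from the opposite strand cannot be told apart.

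**Figure D3:**
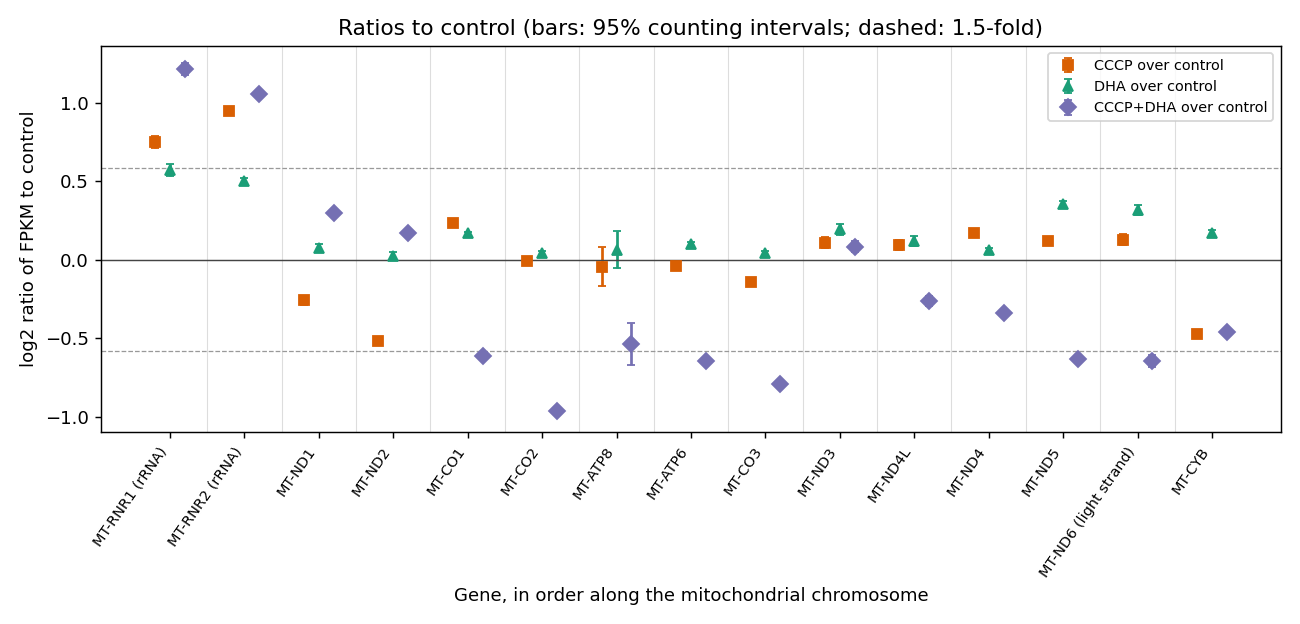
Log2 ratio of FPKM to control (y axis) for the 2 rRNAs and 13 mRNAs in order along the mitochondrial chromosome; bars are 95% counting intervals and dashed lines mark 1.5-fold. With both compounds the rRNAs lie above 1, MT-ND1 and MT-ND2 lie at 0.30 and 0.17, and MT-CO2 lies at -0.97; with DHA all 15 lie above 0, though MT-CO2, MT-ND2 and MT-CO3 turn under equal totals.

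Counted by the 1.5-fold rule, none of the 13 mRNAs was higher or lower than control with CCCP (7.84% of genes tested were higher and 6.46% lower) or with DHA (4.43% higher and 4.15% lower). With both compounds 6 were lower and 0 higher than control, where 12.7% of genes tested were lower and 11.1% higher: MT-CO1, MT-CO2, MT-CO3, MT-ATP6, MT-ND5 and MT-ND6. Against CCCP alone, both compounds gave 6 lower mRNAs and 1 higher, MT-ND2, with 12.4% of genes tested lower and 8.87% higher. Against DHA alone, both compounds gave 8 lower mRNAs and 0 higher, with 9.38% lower and 7.64% higher. The median log2 ratio of the 13 mRNAs to control was -0.01 with CCCP, 0.10 with DHA and -0.53 with both, while that of all genes tested was 0.00, 0.00 and 0.01 in the same order. The median with both compounds was -0.51 against CCCP alone and -0.63 against DHA alone. At any size, all 13 mRNAs lay above control with DHA, where 49.9% of genes tested did, by log2 ratios of 0.02 to 0.35. For MT-CO2, MT-ND2 and MT-CO3 that direction turned when libraries were scaled to equal totals, at log2 ratios of -0.01, -0.02 and -0.01. The summed fibroblast markers were also lowest with both compounds, at 8.99 FPKM against 32.6 FPKM in control. So were the summed melanocyte lineage markers (72.5 FPKM against 81.9 FPKM in control) and epithelial markers (267 FPKM against 375 FPKM). The part of these markers in the result was not tested.

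MT-ND1 with MT-ND2 were also set against the other 11 mRNAs within each library. The ratio was below control with CCCP, above it with both compounds and close to it with DHA. There were 0.0518 reads of MT-ND1 and MT-ND2 per read of the other 11 mRNAs with CCCP, 0.0680 with DHA, 0.127 with both and 0.0720 in control. Summed, MT-ND1 and MT-ND2 were 1.17-fold (1.16 to 1.19) higher with both than in control, and the other 11 were 1.504-fold (1.499 to 1.510) lower. These 2 genes follow the rRNAs on the heavy strand, and this grouping was made after their values were seen. Along the heavy strand the log2 ratio to control with both compounds had a Spearman correlation with the start position of -0.47 over the 2 rRNAs and 12 mRNAs, and of -0.16 over the 12 mRNAs alone. With CCCP the values were -0.20 and 0.27, and with DHA they were -0.02 and 0.57. These describe genes within single pairs of libraries, which are not independent replicates, and the negative value with both compounds rested largely on the rRNAs.

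In counts per gene, reads of released tRNAs and reads of longer uncut transcripts cannot be told apart. The tRNA genes are 59 to 75 bases long, 14 of them in the heavy-strand unit and 8 in the light-strand unit, and few reads were counted on them. The 3 with the most reads are all of the light strand, and the other 3 printed here were the lowest against control with both compounds among tRNA genes with at least 20 reads; all are given 5′ to 3′ on their own strand (GENCODE 29, GRCh38) with the anticodon in capitals. MT-TC reads cysteine codons, MT-TN asparagine, MT-TP proline, MT-TG glycine, MT-TR arginine and MT-TH histidine.
MT-TC, chrM:5761-5826, minus strand: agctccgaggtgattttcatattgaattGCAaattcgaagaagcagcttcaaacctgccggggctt
MT-TN, chrM:5657-5729, minus strand: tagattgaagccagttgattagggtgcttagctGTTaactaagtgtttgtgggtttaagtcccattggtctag
MT-TP, chrM:15956-16023, minus strand: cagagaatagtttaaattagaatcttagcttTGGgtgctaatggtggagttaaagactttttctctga
MT-TG, chrM:9991-10058, plus strand: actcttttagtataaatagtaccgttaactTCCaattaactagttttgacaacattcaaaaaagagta
MT-TR, chrM:10405-10469, plus strand: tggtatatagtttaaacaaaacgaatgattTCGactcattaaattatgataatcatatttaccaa
MT-TH, chrM:12138-12206, plus strand: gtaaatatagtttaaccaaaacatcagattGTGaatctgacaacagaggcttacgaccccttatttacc

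MT-TC, MT-TN and MT-TP together held 3728 reads with CCCP, 3044 with DHA, 2750 with both and 3584 in control, and the other 19 tRNA genes held 336 with CCCP, 259 with DHA, 175 with both and 473 in control. MT-TC was at 1850 FPKM with CCCP, 1434 FPKM with DHA, 1248 FPKM with both and 1650 FPKM in control, so only CCCP lay above control, by 1.12-fold (1.05 to 1.19). MT-TN was at 1039 FPKM with CCCP, 731 FPKM with DHA, 741 FPKM with both and 809 FPKM in control, with CCCP again the only library above control, by 1.28-fold (1.18 to 1.39). MT-TP differed from both: its level was 371 FPKM with CCCP, 421 FPKM with DHA, 336 FPKM with both and 238 FPKM in control. All 3 treated libraries were above control for MT-TP, by 1.56-fold (1.34 to 1.81) with CCCP, 1.77-fold (1.53 to 2.04) with DHA and 1.41-fold (1.21 to 1.64) with both. These tRNAs lie opposite RNA of the heavy-strand unit, and without strand their reads and reads of that RNA cannot be told apart.

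MT-TG had 46 reads with CCCP, 24 with DHA, 5 with both and 34 in control. MT-TR had 26 reads with CCCP, 31 with DHA, 4 with both and 47 in control. MT-TH had 20 reads with CCCP, 35 with DHA, 12 with both and 61 in control. All 3 were lowest with both compounds: against control MT-TG was 6.03-fold (2.35 to 19.7) lower, MT-TR 10.4-fold (3.81 to 39.8) lower and MT-TH 4.51-fold (2.40 to 9.20) lower, with wide intervals on few reads. Because these genes were picked as the lowest in this comparison, large folds follow from the choice, and the intervals take no account of it. MT-TG and MT-TR flank MT-ND3, whose own level with both compounds was 1.06-fold (1.03 to 1.09) above control.

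MT-TY, the tyrosine tRNA next to MT-TC on the light strand, had 87 reads with CCCP, 69 with DHA, 46 with both and 134 in control. It was 2.58-fold (1.84 to 3.69) lower with both than in control and 1.72-fold (1.28 to 2.33) lower with DHA than in control. MT-TL1, a leucine tRNA between MT-RNR2 and MT-ND1, had 113 reads with CCCP, 65 with DHA, 84 with both and 139 in control. It was 1.89-fold (1.40 to 2.58) lower with DHA than in control and 1.47-fold (1.11 to 1.95) lower with both than in control, while its interval with CCCP included no difference. The remaining 4 tRNA genes with at least 20 reads in all (MT-TL2, MT-TE, MT-TD and MT-TS2) had 2 to 12 reads per library. The other 10 had fewer than 20 reads over the 4 libraries, and MT-TW had 0 reads in every library. A count of 0 allowed up to 3 reads, which for a gene of 68 bases is 2.64 FPKM with CCCP, 2.56 FPKM with DHA, 2.56 FPKM with both and 2.27 FPKM in control.

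**Figure D4:**
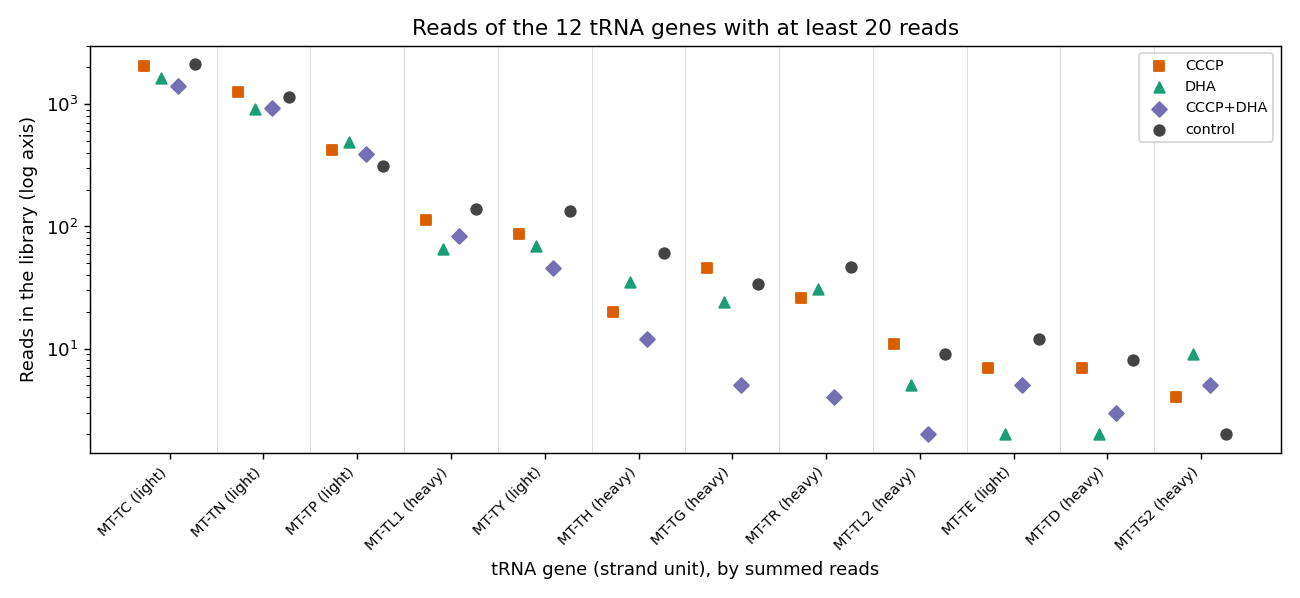
Reads (log axis) of the 12 tRNA genes with at least 20 reads over the 4 libraries, ordered by summed reads, with the strand unit in brackets. MT-TC, MT-TN and MT-TP stand far above the rest, and MT-TG, MT-TR and MT-TH have their fewest reads with both compounds (5, 4 and 12).

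Summed by strand, heavy-strand tRNA genes held 238 reads with CCCP, 181 with DHA, 123 with both and 322 in control. They were 1.57-fold (1.31 to 1.90) lower with DHA than in control and 2.32-fold (1.88 to 2.88) lower with both than in control, and the interval with CCCP included no difference. Light-strand tRNA genes held 3826 reads with CCCP, 3122 with DHA, 2802 with both and 3735 in control. Against control they were 1.19-fold (1.14 to 1.25) higher with CCCP, 1.06-fold (1.01 to 1.11) lower with DHA and 1.18-fold (1.13 to 1.24) lower with both. MT-TC, MT-TN and MT-TP held most of these reads, 2750 of the 2802 with both compounds, and MT-TP alone of them was above control there. By the 1.5-fold rule, 5 of the 20 tRNA genes tested were higher and 5 lower than control with CCCP, where 7.84% and 6.46% of all genes tested were. With DHA 3 were higher and 10 lower (4.43% and 4.15% of all genes tested), and with both compounds 2 were higher and 12 lower (11.1% and 12.7%). MT-TQ and MT-TW stayed under 1 FPKM. From 2-fold on, the members past the size rule in either direction were 7 with CCCP (5.53% of genes tested), 7 with DHA (3.87%) and 16 with both compounds against control (9.96%), and 8 with both against CCCP (8.4%) and 10 with both against DHA (6.9%). Apart from the 2 rRNAs with both compounds against control and MT-CO2 with both against DHA, all of these were tRNA genes. On genes this short 1 to 2 reads pass the filter on low values, so these counts describe the libraries and support no direction.

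The effect of CCCP could be compared without and with DHA. The difference between the combined log2 ratio and the sum of the single ones was below 0 for 11 of the 13 mRNAs, with a median of -0.57 and a range of -1.11 to 0.67; of all genes tested, 50.3% lay below 0. MT-ND5 had the lowest value, -1.11, followed by MT-ND6 at -1.09, MT-CO1 at -1.01 and MT-CO2 at -1.003. MT-ND2 at 0.67 and MT-ND1 at 0.48 were the 2 above 0. For the rRNAs the values were also below 0, -0.11 for MT-RNR1 (ratio with both compounds 1.22 on the log2 scale) and -0.39 for MT-RNR2 (1.06). The DHA ratio of MT-RNR2 was 0.50 without CCCP and 0.11 with it, and that of MT-RNR1 was 0.57 and 0.47. For 13 members the ratio of a compound turned its sign with the other compound while the counting intervals of both ratios stayed clear of no difference, 11 of the mRNAs and 2 tRNA genes, against 10.3% of genes tested. High read numbers make that rule easier to pass. At any size it turned for 22 of the 35 members tested, against 53.7% of genes tested. With 1 library per group these differences have no test.

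The only test the design allowed was an additive fit of both compounds over the 4 libraries with 1 residual degree of freedom, in which any departure from additivity counts as spread. With CCCP, 2 tRNA genes were called lower by limma-trend with Benjamini-Hochberg adjustment over all 13678 genes (0.0585% of genes tested were called lower and 0.0366% higher). MT-TI, the isoleucine tRNA, had a log2 effect of -1.82 (SE 0.15) and an adjusted p of 0.0282 in limma-trend, and MT-TH one of -1.43 (SE 0.14) with an adjusted p of 0.0499. MT-TI rested on 2 reads with CCCP, 5 with DHA, 1 with both and 10 in control. With voom, which weights genes by their reads, the limma fit gave adjusted p of 0.367 for MT-TI and 0.115 for MT-TH. MT-RNR1 had a log2 effect of 0.70 (SE 0.22) and an adjusted p of 0.255 in limma-trend, against 0.0186 with voom, where 2.17% of genes tested were called higher and 2.84% lower. MT-RNR2 had a log2 effect of 0.75 (SE 0.29), with an adjusted p of 0.318 in limma-trend and 0.0547 with voom. For both rRNAs the CCCP effect was positive without and with DHA. No mRNA was called for CCCP by limma-trend or voom, with 0 and 4 of 13 at an unadjusted p under 0.05 (14.5% of genes tested in limma-trend and 17.4% in voom), and the lowest adjusted p in limma-trend was 0.398 for MT-CYB.

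For DHA no mitochondrial gene was called by limma-trend, which called 0.095% of genes tested higher and 0.00731% lower, nor by voom (1.7% higher and 2.2% lower). At an unadjusted p under 0.05 limma-trend had 14 of 20 tRNA genes, 0 of 13 mRNAs and 0 of 2 rRNAs, where 12.1% of genes tested were, and voom had 4, 0 and 1 of them, where 15.5% were. These tRNA genes include those with few reads. The lowest adjusted p in limma-trend was 0.0873, for the aspartate tRNA MT-TD on 2 to 8 reads per library. MT-RNR1 had a log2 effect of 0.52 (SE 0.22) with an adjusted p of 0.424 in limma-trend and 0.104 with voom.

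Stretches of mitochondrial sequence also lie in nuclear chromosomes, and near-identical sequence lets reads fit either place. GENCODE 29 names 407 such copies of the mRNA and rRNA genes, 61 of which had reads, and together they held 1.11% as many reads as the mitochondrial mRNAs. The top 4 copies held 99.1% of these reads. Over the 4 libraries MTATP6P1 held 21253 reads beside 245355 of MT-ATP6, MTND2P28 7586 beside 104068 of MT-ND2 and MTCO1P12 3218 beside 976408 of MT-CO1. MTATP6P1 (chr1:633696-634376) was at 494 FPKM with CCCP, 576 FPKM with DHA, 325 FPKM with both and 382 FPKM in control, so both compounds gave the lowest value, as for MT-ATP6. Its log2 ratio to control was 0.37 with CCCP and 0.59 with DHA, against -0.04 and 0.10 for MT-ATP6. MTCO1P12 (chr1:631074-632616) was at 35.4 FPKM with CCCP, 37.3 FPKM with DHA, 19.5 FPKM with both and 26.4 FPKM in control, also lowest with both compounds. MTND2P28 (chr1:629640-630683) was at 74.5 FPKM with CCCP, 111 FPKM with DHA, 119 FPKM with both and 106 FPKM in control, lowest with CCCP and highest with both as MT-ND2 was. Whether these reads came from the copies or from mitochondrial RNA was not tested.

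Most nuclear genes that make and handle mitochondrial RNA stayed within 1.5-fold of control. The mitochondrial RNA polymerase POLRMT was at 10.2 FPKM with CCCP, 10.2 FPKM with DHA, 12.2 FPKM with both and 9.87 FPKM in control. TFAM, which packages the genome and starts transcription, was at 9.77 FPKM with CCCP, 12.8 FPKM with DHA, 12.6 FPKM with both and 12.6 FPKM in control. TFB2M, the promoter-melting factor, was at 8.62 FPKM with CCCP, 11.8 FPKM with DHA, 12.4 FPKM with both and 11.1 FPKM in control. TFAM and TFB2M were thus lowest with CCCP, and neither was below control with both compounds. Whether the levels of such nuclear transcripts bear on mitochondrial RNA was not tested. The elongation factor TEFM was at 1.67 FPKM with CCCP, 1.962 FPKM with DHA, 2.21 FPKM with both and 2.25 FPKM in control. Of 21 transcription and genome maintenance genes, all tested, 2 were at least 1.5-fold higher on FPKM + 0.5 with both compounds than in control and 0 lower, where 11.1% and 12.7% of all genes tested were. They were the helicase TWNK (log2 ratio 0.70) and the ribonucleotide reductase subunit RRM2B (0.59). On FPKM alone TOP1MT (1.57-fold higher) and MTERF2 (1.56-fold lower) would pass as well. The list's median log2 ratio was -0.10 with CCCP, 0.04 with DHA and 0.07 with both.

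Among 24 tested genes of RNA processing, tailing and decay the medians were -0.08 with CCCP, 0.05 with DHA and 0.08 with both. LRPPRC, which holds mitochondrial mRNAs stable together with SLIRP, was at 19.5 FPKM with CCCP, 21.5 FPKM with DHA, 26.6 FPKM with both and 19.3 FPKM in control. SLIRP was at 12.8 FPKM with CCCP, 13.1 FPKM with DHA, 13.2 FPKM with both and 11.3 FPKM in control. Neither was below control with both compounds, and whether their levels bear on the mitochondrial mRNAs was not tested. PNPT1, the polynucleotide phosphorylase of mitochondrial RNA decay, was at 8.64 FPKM with CCCP, 9.03 FPKM with DHA, 10.4 FPKM with both and 8.57 FPKM in control, and ELAC2, which cuts tRNAs free at their 3′ ends, was at 10.4 FPKM with CCCP, 10.99 FPKM with DHA, 10.7 FPKM with both and 11.7 FPKM in control. FASTKD5, a factor of mRNA processing, was the only one of the 24 past 1.5-fold on FPKM + 0.5 in a comparison with control, at a log2 ratio of -0.89 with CCCP (6.46% of all genes tested were lower), and on FPKM alone SUPV3L1 would pass too, 1.52-fold higher with both compounds. Of 31 tRNA and rRNA modification genes, THG1L (log2 ratio 0.62) and TRMU (-0.66) passed with both compounds on FPKM + 0.5, and MTO1 (1.59-fold higher) and NSUN4 (1.55-fold higher) would pass on FPKM alone. Of 6 tested biogenesis regulators ESRRA (0.70) and MYC (0.71) did. Of all genes tested, 11.1% were that much higher with both compounds and 12.7% lower.

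The mitochondrial mRNAs were set beside nuclear-encoded subunits of the same complexes. With both compounds the 13 mitochondrial mRNAs had a median log2 ratio to control of -0.53, and the 68 tested nuclear subunits of complexes I, III, IV and V one of -0.03. In complex IV the medians were -0.79 over the 3 mitochondrial subunits and 0.03 over 11 nuclear ones, and no nuclear subunit of complex IV lay below -0.53. In complex V they were -0.59 over 2 mitochondrial and -0.20 over 15 nuclear subunits, and in complex I they were -0.26 over 7 mitochondrial and -0.03 over 33 nuclear ones. With CCCP alone the complex IV medians were -0.01 for mitochondrial and 0.29 for nuclear subunits. At 1.5-fold 4 of the 68 nuclear subunits were lower with both than in control, where 12.7% of all genes tested were: NDUFB2 and NDUFS7 of complex I, and ATP5ME and ATP5MF of complex V. Against CCCP alone, the library with both compounds had a nuclear median of -0.21, with 54 of the 68 subunits below 0 and 14 above. Against DHA alone that median was -0.14, with 49 below 0 and 19 above. The 13 mitochondrial mRNAs had medians of -0.51 and -0.63 in these 2 comparisons, so both groups of subunits leaned lower there.

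**Figure D5:**
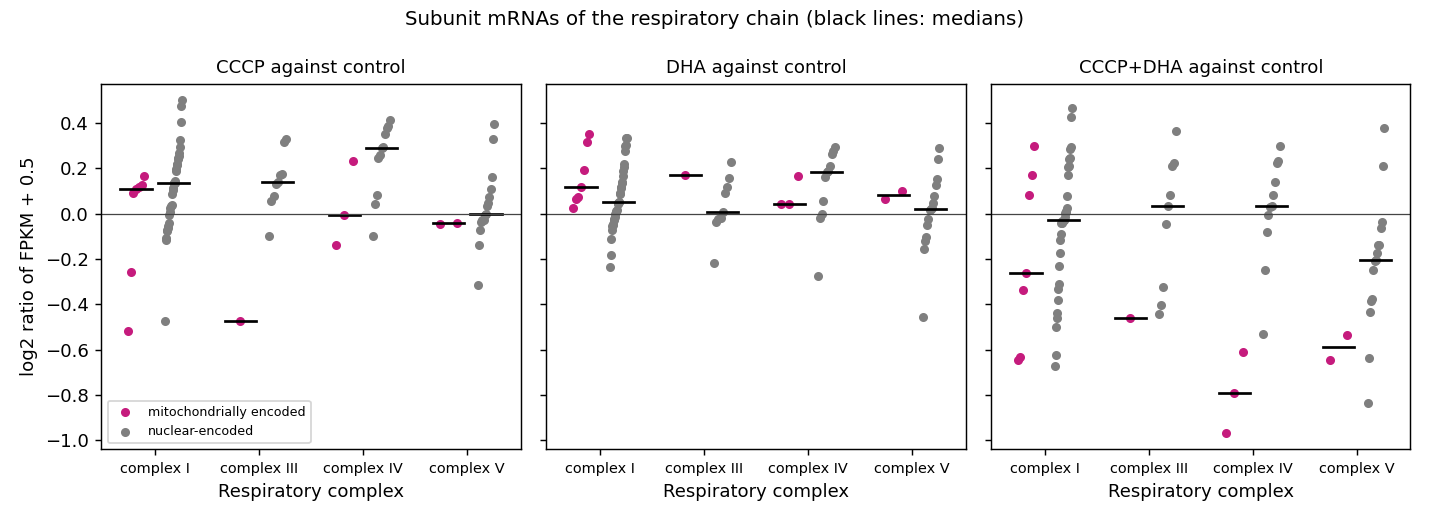
Log2 ratios to control of subunit mRNAs of complexes I, III, IV and V, 1 panel per treated library, mitochondrially encoded beside nuclear-encoded, 1 point per gene and black lines at medians. With both compounds the 3 mitochondrial subunits of complex IV (median -0.79) lie below all of its 11 nuclear subunits (median 0.03).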

How the data were processed

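RNA sequencing of 4 OMM2.3 libraries, 1 per group, was used. Per the file headers, the authors deposited FPKM for 58735 genes per library; aligner, counter and build: not given in the sources used here. Coordinates and sequences came from GENCODE 29 (Ensembl 94, GRCh38), which held every gene identifier. FPKM times exon length came out as whole reads, within 0.01 reads, for 100% of nonzero values; the implied library sizes differed from read totals by at most 2.78%. Values were used as deposited.

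Log2 ratios used FPKM + 0.5 over the 13678 genes that reached 1 FPKM in any library. The code of the fit was run on simulated data, in which changed genes had additive effects and a mean of at least 5 FPKM. That run does not cover departures from additivity or changes in genes with few reads. Members and lists were chosen with earlier results of these data known. Named were all members, tRNA genes with at least 20 reads one by one, the top nuclear copies, and list genes from 1.5-fold with a mean of at least 1 FPKM, besides POLRMT, TFAM, TFB2M, TEFM, LRPPRC, SLIRP, PNPT1 and ELAC2; MT-TI and MT-TW were named after their values were seen. Alternatives were pseudocounts of 0.1 and 1, other scalings, filters and size rules, limma without trend and voom. Software was limma 3.58.1 under R 4.3.3, and numpy 2.4.6, scipy 1.17.1, pandas 2.3.3, Biopython 1.88 and matplotlib 3.10.9 under Python 3.11.15.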

Additional observations from a re-analysis of the deposited data

Results flagged for a closer look

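For 13 mitochondrial genes the log2 ratio of 1 compound had one sign without the other compound and the opposite sign with it, with counting intervals of both ratios clear of no difference. By that rule 10.3% of genes tested turned, and it is easier to pass with many reads. The difference itself was not tested, since each group is 1 library, and the values below are the log2 ratio with the other compound minus that without it. For MT-CO1 (-1.01), MT-ND5 (-1.11), MT-ND6 (-1.09), MT-ND4 (-0.57) and MT-ND4L (-0.47) both the CCCP and the DHA ratio were below 0 on top of the other compound and above 0 alone. For MT-CO2 (-1.003), MT-ATP6 (-0.70) and MT-CO3 (-0.69) the DHA ratio turned in that way, and its value without CCCP was small, at 0.04, 0.10 and 0.04; under equal totals MT-CO2 and MT-CO3 no longer turned, since their DHA ratio without CCCP was then below 0. For MT-ND3 (-0.22) the CCCP ratio turned, at -0.11 with DHA and 0.11 without it. MT-ND1 (0.48) and MT-ND2 (0.67) turned the other way: the CCCP ratio of MT-ND2 was 0.15 with DHA and -0.52 without it, and that of MT-ND1 was 0.22 with DHA and -0.26 without it. Among tRNA genes, MT-TP (-0.96) had a CCCP ratio of -0.33 with DHA and 0.64 without it, and MT-TC (-0.37) one of -0.20 with DHA and 0.17 without it. At any size the sign turned for 22 of the 35 members tested, 12 mRNAs and 10 tRNA genes, against 53.7% of genes tested. Among those with an interval that included no difference, MT-TG had a CCCP ratio of -2.14 with DHA and 0.65 without it (difference -2.79, on 109 reads in all), MT-TL1 one of 0.36 with DHA and -0.08 without it (0.44), and MT-ATP8 a DHA ratio of -0.49 with CCCP and 0.06 without it (-0.55).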

How the results depend on the processing

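No paired analysis was possible because each group holds 1 library, and leaving out a library would leave no residual degree of freedom, so that was not run. Member by member, the mRNAs, the rRNAs and the tRNA genes with at least 20 reads were covered, which leaves out MT-TI. All 135 of their ratios stayed within their counting intervals with pseudocounts of 0.1 and 1 FPKM and with TMM scaling. Those intervals are wide for genes with few reads, which makes this easier to pass. With equal totals over all genes 54 ratios moved and 3 reversed, and with equal totals over nuclear genes 51 moved and 3 reversed. Scaling moved the median of all genes by less than 0.1 on the log2 scale. Reads on tRNA genes are few, some genes overlap, strand is unknown, and whether reads are shared with nuclear copies was not tested. The cause of the differences between settings below was not tested, except where a stricter size rule or fewer genes give it by construction.

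Log2 ratios of class sums are given with equal totals over all genes, then with equal totals over nuclear genes, then as reported. The mRNA sum was -0.0025, 0.0019 and 0.06 for CCCP against control, so its direction turned with equal totals over all genes only. It was 0.0777, 0.0835 and 0.13 for DHA against control, and -0.53, -0.54 and -0.52 for both against control. Between treated libraries it was -0.52, -0.54 and -0.57 for both against CCCP, and -0.60, -0.62 and -0.64 for both against DHA. The rRNA sum was 0.86, 0.87 and 0.92 for CCCP and 0.47, 0.47 and 0.52 for DHA against control, 0.21, 0.19 and 0.16 for both against CCCP, and 0.61, 0.59 and 0.57 for both against DHA. For both against control it was 1.06 with nuclear totals and 1.08 as reported. With equal totals over all genes and over nuclear genes, DHA ratios to control of single mRNAs turned for MT-CO2 (-0.0068 and -0.0010), MT-ND2 (-0.0248 and -0.0190) and MT-CO3 (-0.0065 and -0.00073).

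The mRNA median with equal nuclear totals was -0.0623 for CCCP, 0.0548 for DHA and -0.48 for both against CCCP. Without genes whose spans overlap it was 0.17 for DHA against control, -0.65 for both against CCCP and -0.78 for both against DHA, and with reads of nuclear copies added it was 0.12 for DHA. The median departure from additivity was -0.50 with nuclear totals. From 2-fold in place of 1.5-fold on, the members counted were 7 in place of 12 for CCCP, 7 in place of 13 for DHA, 8 in place of 20 for both against CCCP, and 10 in place of 19 for both against DHA. Members called for CCCP numbered 2 by limma-trend as reported (MT-TI and MT-TH), 0 with equal nuclear totals and 0 without a filter. Without trend 0 members were called, and so were 0 of all 13678 genes tested. With a mean of at least 5 FPKM 1 was called, MT-TH, and MT-TI did not pass that filter. With voom 1 was called, MT-RNR1, which was higher, and neither MT-TI nor MT-TH was called. Of genes tested, limma-trend called 0.0585% lower and 0.0366% higher, and voom 2.84% lower and 2.17% higher. The member-by-member settings and those of the departure were chosen after seeing the data.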
